A study of Homo sapiens with 6 samples.

Results

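The 7 human sirtuins and 3 enzymes of the NAD economy, NAMPT, NMNAT1 and NNMT, were followed by RNA sequencing in HPC, an established line of human podocytes. Podocytes are the epithelial cells that wrap the filtering capillaries of the kidney. The genes were chosen by symbol from the deposited gene tables, which gave 11 listings for the 10 symbols among 38648 listed genes, because SIRT2 is listed at 2 places. All 6 libraries came from cells labelled WT, kept in high glucose and given a lentivirus, with 24 h in the titles. A negative control (NC) lentivirus was used in 3 libraries and a lentivirus made to overexpress PRDM16, a zinc finger transcription factor, in the other 3. Whether the libraries of a group are separate cultures is not in the labels. Their spread, and every p-value built on it, may therefore be technical. The sources used here give neither the promoter nor the dose of the lentiviruses, and cells in normal glucose were not analysed here.

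Sirtuins are enzymes that remove acetyl and other acyl groups from lysines and consume NAD+ each time they do so, releasing nicotinamide. NAMPT turns nicotinamide into nicotinamide mononucleotide, the slow step of the salvage pathway, and NMNAT1 completes NAD+ in the nucleus. NNMT takes nicotinamide out of the pathway by methylating it with S-adenosylmethionine. In podocytes, SIRT1 and SIRT6 are known mainly as protective deacetylases in models of diabetic kidney disease.

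Libraries held between 20147135 and 41280350 counts, and 3 counts, the floor used here for a gene at 0, stood for 0.0727 to 0.149 CPM, the count scaled to the library total. PRDM16 had 0 counts in each NC library and 11, 18 and 24 in the PRDM16 libraries, which pooled was at least 13.9-fold higher than 3 counts over the NC group. The level with PRDM16 was still low, at 0.573, 0.646 and 0.573 CPM, here scaled by TMM factors, which the floor is not. Only 0.0065% of the genes tested below had a lower mean CPM over all libraries. Of 15381 genes tested with edgeR's quasi-likelihood test, 10 passed a Benjamini-Hochberg adjusted p of 0.05 (0.0650%). With 1 library left out it lay between 7 and 173, the highest when that was NC library 3, and leaving out PRDM16 library 1 or 2 gave 20 or 59. Of 8 podocyte markers, PODXL, SYNPO and CD2AP were expressed (117, 29.3 and 185 CPM), while NPHS1, WT1 and PTPRO had at most 4 counts in any library. The summed level of the 8 was 330 to 428 CPM with NC and 279 to 316 with PRDM16. Over all libraries the SD was 45.6 CPM in CD2AP, 9.1 in PODXL and 1.5 in SYNPO, so the sum varied mostly with CD2AP. Markers of parietal and tubular epithelium summed to 836 to 891 and 732 to 855 CPM, with PAX8 at 243 CPM and LRP2 at 0 counts. Those of mesangial cells and fibroblasts summed to 337 to 376 and 311 to 370 CPM, mostly COL1A1 at 303 CPM, with PDGFRB at 24.5 and LUM at 21.5, and with PDGFRA, COL3A1 and ITGA8 at or near 0. Endothelial markers stayed between 2.98 and 3.66 CPM, with KDR at 0 counts, and immune markers were 142 to 163 and 174 to 180 CPM, nearly all CD68, with CD3E at 0 counts. The part of these markers in the results below was not tested, and in bulk RNA fewer cells of a type and less RNA per cell cannot be told apart.

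The sirtuins share a core fold but are written in very different base compositions, and base composition ran with the differences between the groups, as described further on. To show this, the 20-residue stretch most alike between SIRT1 and the other 6 proteins was found by pairwise alignment. The 60 coding bases of that stretch are printed below for each gene, 5′ to 3′ on the coding strand, from the transcript with the longest coding part in GENCODE release 29 (GRCh38). It lies at coding bases 766 to 825 of SIRT1 and 139 to 198 of SIRT6, in the part of the core that binds NAD+. Capitals mark G or C at the last base of a codon.
SIRT1: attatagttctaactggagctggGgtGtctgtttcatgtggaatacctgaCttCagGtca
SIRT2: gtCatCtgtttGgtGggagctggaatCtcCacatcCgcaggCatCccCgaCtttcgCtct
SIRT3: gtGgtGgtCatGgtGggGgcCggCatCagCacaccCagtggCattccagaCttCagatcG
SIRT4: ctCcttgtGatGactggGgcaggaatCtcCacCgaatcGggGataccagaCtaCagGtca
SIRT5: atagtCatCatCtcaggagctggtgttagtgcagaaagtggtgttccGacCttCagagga
SIRT6: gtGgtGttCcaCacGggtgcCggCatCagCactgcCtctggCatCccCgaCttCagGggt
SIRT7: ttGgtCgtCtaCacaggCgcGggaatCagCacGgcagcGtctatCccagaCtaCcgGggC
SIRT1 ended 5 of these 20 codons in G or C and SIRT5 ended 6. SIRT2 and SIRT4 ended 12 each, SIRT3 and SIRT7 15 each, and SIRT6 16. Over the whole coding part, codons ended in G or C in 38.8% of cases in SIRT1 and 86.2% in SIRT6. NAMPT stood with SIRT1 at 36.2%. The proteins themselves were closest between SIRT2 and SIRT3 (49.8% identical over 329 aligned residues) and between SIRT6 and SIRT7 (49.6% over 240), and least alike between SIRT1 and SIRT6 (26.2% over 290).

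NNMT and NAMPT were far more abundant than any sirtuin. By deposited TPM, which corrects for gene length, NNMT stood at 404 ± 10.4 and NAMPT at 191 ± 37.8 (SD over 6 libraries). The most abundant sirtuins on this scale were the nuclear SIRT6 (50.9 ± 5.55 TPM) and the nucleolar SIRT7 (45.0 ± 2.75), then the nuclear and cytosolic SIRT1 (26.3 ± 6.28). SIRT6 exceeded SIRT7 in 6 of 6 libraries, though their ranges of 43.9 to 57.1 and 41.2 to 48.3 TPM overlapped. This order depends on listed lengths of 1898 bases for SIRT6 and 3518 for SIRT7, against 1641 and 1743 in their longest-coding GENCODE transcripts. In CPM scaled by TMM factors, not divided by length, SIRT7 (mean 58.2) and SIRT1 (42.3) lay above SIRT6 (35.5). The mitochondrial sirtuins were lower in TPM, with SIRT3 at 9.52 ± 0.949, SIRT5 at 4.26 ± 0.236 and SIRT4 between 0.707 and 1.51. The listed lengths of SIRT3 and SIRT4 are 5589 and 2732 bases, against 2543 and 1217 in their longest-coding GENCODE transcripts. For SIRT1 they are 4451 and 4094, so the distance of SIRT3 from SIRT1 depends on the listed length. NMNAT1, at 11.0 ± 1.11 TPM, lay above SIRT3 in 5 of 6 libraries, so that these neighbours did not separate. Their order depends on length too, since NMNAT1 is listed at 4763 bases, against 3781 in its longest-coding GENCODE transcript. In TMM-scaled CPM the means were 19.6 for SIRT3 and 19.2 for NMNAT1. SIRT2, mainly cytosolic, had 13.5 ± 11.4 TPM with its listings summed, and its range, 5.53 to 34.5, reached from below SIRT3 and NMNAT1 into that of SIRT1. The listed length of SIRT5, 10558 bases, joins the exons of all its models, against 3922 in its longest-coding GENCODE transcript, and TPM divides its 327 to 651 counts by the former.

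**Figure D1:**
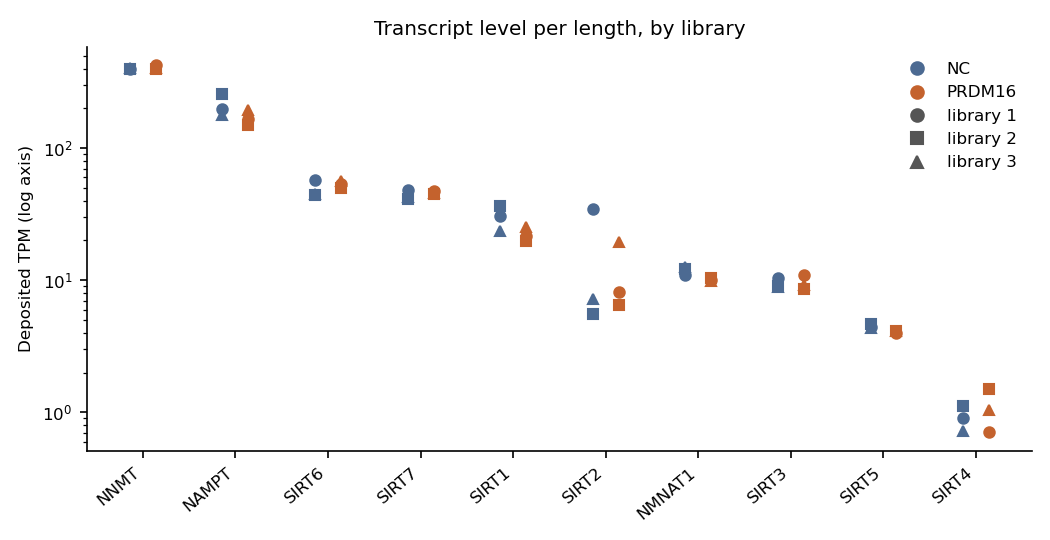
Deposited TPM of each gene (log axis) in 3 NC and 3 PRDM16 libraries, ordered by the mean, with the listings of SIRT2 summed and marker shape giving the library number. NNMT and NAMPT lie above all sirtuins, SIRT4 lies lowest near 1 TPM, and SIRT2 has the widest spread, from 5.53 to 34.5 TPM.

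None of the 10 genes passed the comparison of PRDM16 with NC lentivirus. Each symbol had 1 tested listing, and 0 of 10 passed in edgeR (adjusted p from 0.298 to 0.968), in DESeq2 or in limma-voom. Of all genes tested, 0.0650%, 0.299% and 0.0260% passed in these tools. At an unadjusted p under 0.05 each tool picked 1 of the 10, SIRT1, against 16.0%, 8.69% and 13.5% of all genes. DESeq2 was run without the filter on low counts. Its shares are over 16072 genes with an adjusted p and 26696 with an unadjusted p, against 15381 in the other tools. In edgeR 6.76% of all genes had such a p and were lower with PRDM16, as SIRT1 was, and 9.23% were higher. Of the 10 genes 6 had a log2 fold change above 0, as did 46.9% of all genes. The groups overlapped in CPM in all 10, whereas 21.0% of tested genes had groups that did not. The median size of the log2 fold change was 0.19 in the 10 genes and 0.19 over all tested genes. For 8 of the 10, all but SIRT2 and SIRT4, the 95% interval of the edgeR fold change lay within 1.5-fold in either direction.

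Among the nuclear sirtuins, SIRT1 was lower on average with PRDM16, and SIRT6 and SIRT7 were higher, none of them past the threshold. SIRT1 (chromosome 10, 67884656 to 67918390, hg38, plus strand) deacetylates p53, FOXO factors and histones. Its level was 48.0, 53.8 and 38.5 CPM in NC libraries 1, 2 and 3 and 39.1, 34.3 and 40.3 CPM in PRDM16 libraries 1, 2 and 3, scaled by TMM factors as are all CPM values of single genes below. The first 2 NC libraries lay above every PRDM16 library, and NC library 3 lay among them. The log2 fold change was -0.30 ± 0.13 (SE, edgeR adjusted p = 0.298, 95% interval -0.57 to -0.03). It was -0.18 without NC library 2 and -0.42 without NC library 3.

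SIRT6 (chromosome 19, 4174109 to 4182563, minus strand) is a chromatin deacetylase that restrains glycolytic genes and aids DNA repair. It was at 37.9, 27.6 and 31.3 CPM with NC and 40.9, 37.2 and 38.1 CPM with PRDM16. The PRDM16 libraries were tightly grouped, and only NC library 1 reached into them. The log2 fold change was 0.26 ± 0.13 (edgeR adjusted p = 0.315), 0.17 without NC library 2 and 0.39 without NC library 1. SIRT7 (chromosome 17, 81911939 to 81918176, minus strand), which acts at ribosomal DNA, was at 59.5, 48.0 and 54.7 CPM with NC and 67.2, 61.8 and 58.0 CPM with PRDM16. Here too NC library 1 lay among the PRDM16 libraries and NC library 2 was the lowest. Its log2 fold change was 0.20 ± 0.12 (edgeR adjusted p = 0.352), 0.13 without NC library 2 and 0.27 without NC library 1. The ratio of SIRT6 to SIRT1 in deposited TPM, chosen after these levels were seen and given without a test, was 1.85, 1.20 and 1.91 with NC and 2.46, 2.55 and 2.21 with PRDM16. The values of this ratio did not overlap between the groups. Pairing a gene that was lower with a gene that was higher favours this, and no share over other gene pairs was computed. With the trend on length and GC content removed, SIRT1 and SIRT6 were at -0.11 and -0.05, so that they differed little.

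None of the mitochondrial sirtuins passed the threshold. SIRT3, the main mitochondrial deacetylase (chromosome 11, 215030 to 236931, minus strand), was at 20.3, 16.7 and 18.2 CPM with NC and 24.9, 18.9 and 18.4 CPM with PRDM16. PRDM16 library 1 stood above the others, and without it the log2 fold change went from 0.17 ± 0.14 to 0.02. Without PRDM16 library 3 the log2 fold change was 0.25. SIRT3 shares 84 exon bases with RIC8A on the other strand, and the strand setting of the counting is not given, so those reads cannot be told apart. SIRT5 (chromosome 6, 13574217 to 13615158, plus strand) removes succinyl and malonyl groups. It was among the steadiest genes, with 16.2, 16.2 and 16.8 CPM with NC and 17.0, 17.0 and 15.6 CPM with PRDM16. Only 1.89% of tested genes had a smaller SD of log2 CPM within groups. Its log2 fold change of 0.01 ± 0.12 changed sign with upper-quartile scaling (-0.0011). On the deposited TPM scale SIRT5 was lower with PRDM16 without overlap (4.45 ± 0.159 against 4.07 ± 0.0771, SD, n = 3), so the scale decided its direction.

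SIRT4, a mitochondrial sirtuin that restrains glutamate dehydrogenase (chromosome 12, 120291780 to 120313249, plus strand), was near the detection limit. It had 20, 29 and 15 counts with NC and 15, 45 and 43 with PRDM16. PRDM16 library 2 was the highest at 1.62 CPM, and PRDM16 library 1 lay within the NC range at 0.781 CPM. The log2 fold change was 0.40 ± 0.30 (edgeR adjusted p = 0.449), with an interval of -0.21 to 1.02, so a 2-fold difference was not excluded at this depth. Without PRDM16 library 2 it was 0.09, and without PRDM16 library 1 it was 0.58.

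**Figure D2:**
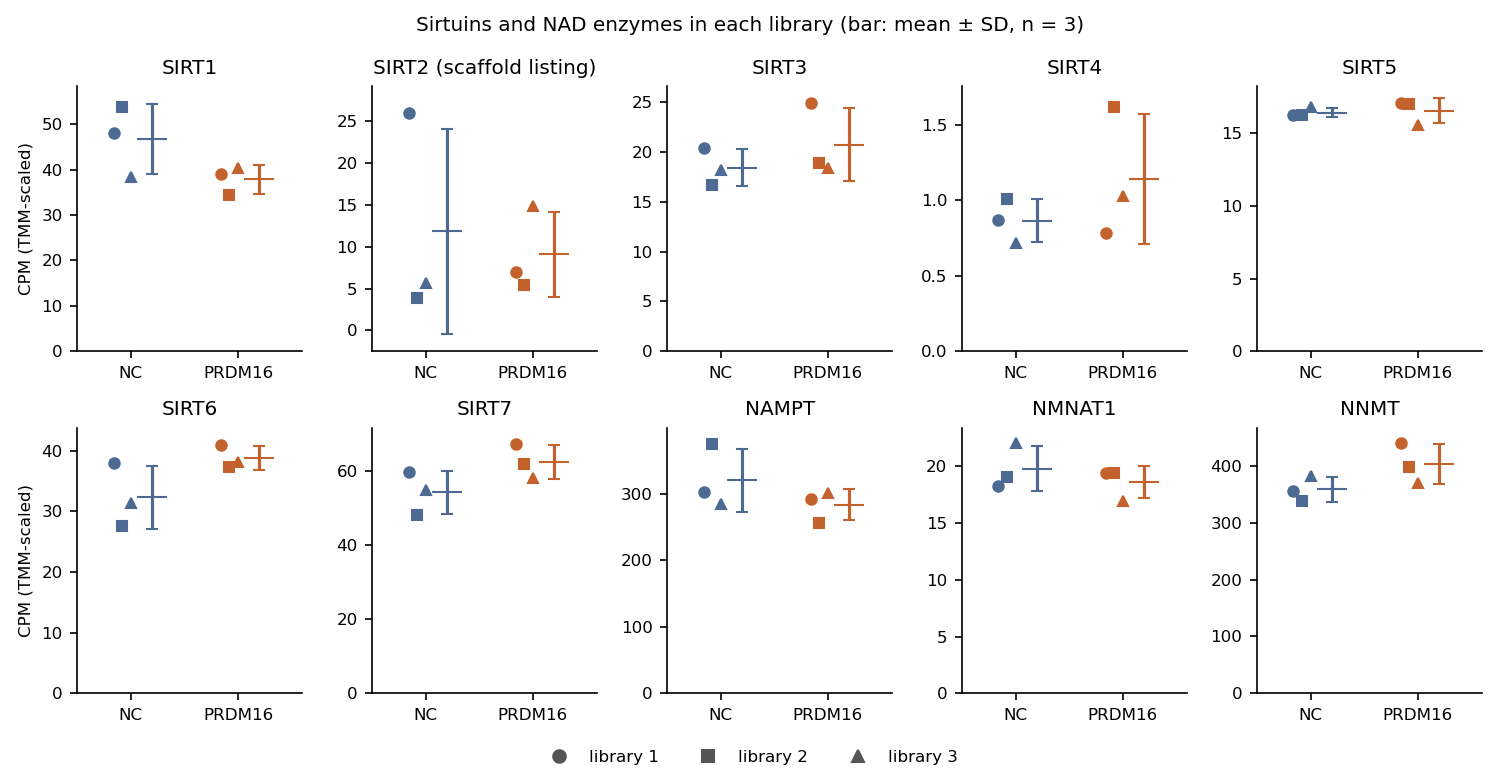
TMM-scaled CPM of the 10 tested listings in each library (points, shape giving the library number) with the group mean and SD (n = 3) beside them. The groups overlap in every panel, and SIRT2 has the widest relative spread, from 3.92 to 26.0 CPM.

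SIRT2, a deacetylase of tubulin and other cytosolic proteins, could not be measured at its place on the chromosome. At chromosome 19, 38878555 to 38899733 (minus strand), the libraries held at most 2 counts. Nearly all of its counts lay at a second listing, on a scaffold outside the chromosomes, with 598, 113 and 118 counts with NC and 135, 150 and 623 with PRDM16. That is 26.0, 3.92 and 5.66 CPM with NC and 7.03, 5.39 and 14.9 CPM with PRDM16. NC library 1 and PRDM16 library 3 stood far above the other 4, so the spread lay within the groups and not between them. Its SD of log2 CPM within groups was 1.10, larger than in 99.4% of tested genes. The log2 fold change was -0.36 ± 0.94 (edgeR adjusted p = 0.854), with an interval of -2.92 to 2.20. It turned to 0.94 without NC library 1, and to 0.37 without both high libraries (edgeR adjusted p = 0.267), an alternative chosen after the counts were seen.

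The other genes of that scaffold also varied widely, with different libraries high for different genes. It lists 18 genes, of which 10 were tested, with a median within-group SD of 1.05, against 0.313 for the 995 tested listings of symbols with more than 1 place and 0.152 for the 14386 genes with 1 place. The seryl-tRNA synthetase SARS2 had 577, 31 and 100 counts with NC and 455, 36 and 309 with PRDM16. The translation factor subunit EIF3K had 139, 288 and 565 with NC and 133, 316 and 7549 with PRDM16. SARS2 was highest in NC library 1, as SIRT2 was, while EIF3K was highest in PRDM16 library 3. NFKBIB, the next gene to SIRT2, had 95, 61 and 46 counts with NC and 340, 405 and 518 with PRDM16, a separation that SIRT2 did not share. How reads matching both places were assigned is not given in the sources used here, and the part of that assignment in the level of SIRT2 was not tested.

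**Figure D3:**
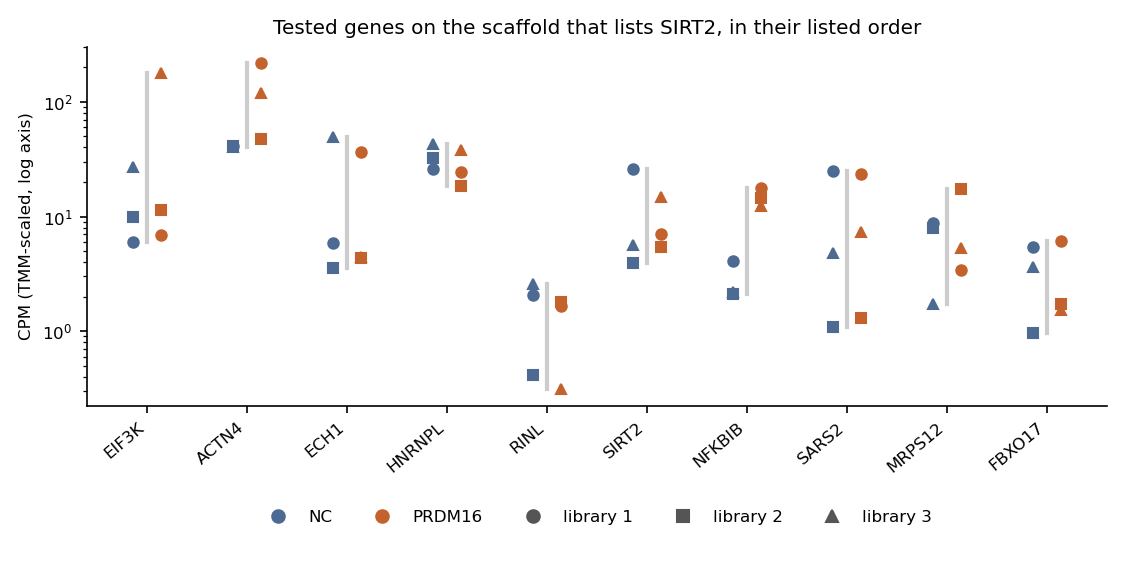
TMM-scaled CPM (log axis) of the 10 tested genes on the scaffold that lists SIRT2, in each NC and PRDM16 library, with grey lines from the lowest to the highest library. The highest library differs from gene to gene: NC library 1 for SIRT2 and SARS2, and PRDM16 library 3 for EIF3K.

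Of the NAD enzymes, NAMPT and NMNAT1 were lower on average with PRDM16 and NNMT was higher, by amounts within the spread of the libraries. NAMPT (chromosome 7, 106248298 to 106284983, minus strand) was at 302, 374 and 285 CPM with NC and 292, 257 and 301 CPM with PRDM16. NC library 2 stood apart at the top, and the other 5 libraries were intermixed. The log2 fold change was -0.18 ± 0.12 (edgeR adjusted p = 0.423), -0.04 without NC library 2 and -0.25 without NC library 3. NMNAT1 (chromosome 1, 9942923 to 9996884, plus strand) was at 18.2, 19.1 and 22.0 CPM with NC and 19.4, 19.4 and 16.9 CPM with PRDM16, a log2 fold change of -0.09 ± 0.13 (edgeR adjusted p = 0.706). It was -0.0017 without NC library 3, -0.15 without NC library 1 and -0.0028 with the length and GC trend removed. In deposited TPM its groups did not overlap (11.9 ± 0.863 and 10.1 ± 0.259, SD, n = 3). On that scale 21.9% of tested genes had groups that did not overlap, and NMNAT1 and SIRT5 were 2 of the 10 genes here.

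NNMT (chromosome 11, 114257806 to 114313536, plus strand) was at 356, 338 and 381 CPM with NC and 440, 399 and 369 CPM with PRDM16. Its log2 fold change was 0.17 ± 0.12 (edgeR adjusted p = 0.425, interval -0.07 to 0.41), which leaves out a 1.5-fold difference. Without PRDM16 library 1 it was 0.10, and without PRDM16 library 3 it was 0.22. PRDM16 libraries 1 and 2 were the highest, and PRDM16 library 3 lay below NC library 3. In TPM the 2 groups were closer still, at 400.0 ± 5.10 and 408 ± 14.1 (SD, n = 3). NNMT exceeded NAMPT in TPM in every library, by 2.00, 1.54 and 2.28 times with NC and 2.56, 2.64 and 2.08 times with PRDM16.

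Apart from SIRT2 and SIRT4, the differences of the genes tended to run with the base composition of their transcripts. SIRT2 and SIRT4 had the lowest and the highest log2 fold change, at 58.6% and 51.3% GC. The GC content was lowest in SIRT1 (39.2%) and NAMPT (41.0%), both lower with PRDM16, and highest in SIRT7 (61.9%) and SIRT6 (65.5%), both higher. Across the 9 genes other than SIRT2, the log2 fold change had a Spearman's rho of 0.800 with GC content, and it was 0.491 with SIRT2 included. Over 13892 tested genes with a GC value the rho was 0.639. These points share the same 6 libraries and are not independent, so no p is given. Medians over all genes were -0.21 in the bin of lowest GC content of 5 equal ones, which holds SIRT1 and NAMPT, and 0.24 in the highest, which holds SIRT6 and SIRT7. The trend differed between libraries of 1 group: across genes, the deviation from the mean ran with GC content at rho = -0.711 in NC library 2, -0.235 in NC library 3 and 0.153 in NC library 1, and at 0.302 to 0.502 in the PRDM16 libraries. NC library 2 was the lowest library for 5 of the 10 genes and the highest for SIRT1 and NAMPT.

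With the trend on length and GC content removed in each library, the differences of most of the 10 genes shrank. The trend itself ran with the group, since its rho with GC content was 0.302 to 0.502 with PRDM16 and -0.711 to 0.153 with NC. Removing it therefore also removes any difference between the groups that follows length or GC content. The shrinking cannot tell where the trend came from, and its cause was not tested. The log2 fold change of SIRT1 became -0.11 ± 0.09 (SE), that of NAMPT -0.01 ± 0.08, that of SIRT7 0.01 ± 0.07 and that of SIRT6 -0.05 ± 0.07, a change of sign. NNMT and SIRT3 were at 0.09 each and SIRT4 at 0.36 ± 0.30, while SIRT5 and SIRT2 moved away from 0, to 0.19 ± 0.10 and -0.46 ± 0.89. The median size over the 10 genes went from 0.19 to 0.09, and 0 of 10 had an unadjusted p under 0.05, where 6.55% of the genes in that fit did. After adjustment 0 of 10 passed in that edgeR fit, as did 0.0360% of all its genes.

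**Figure D4:**
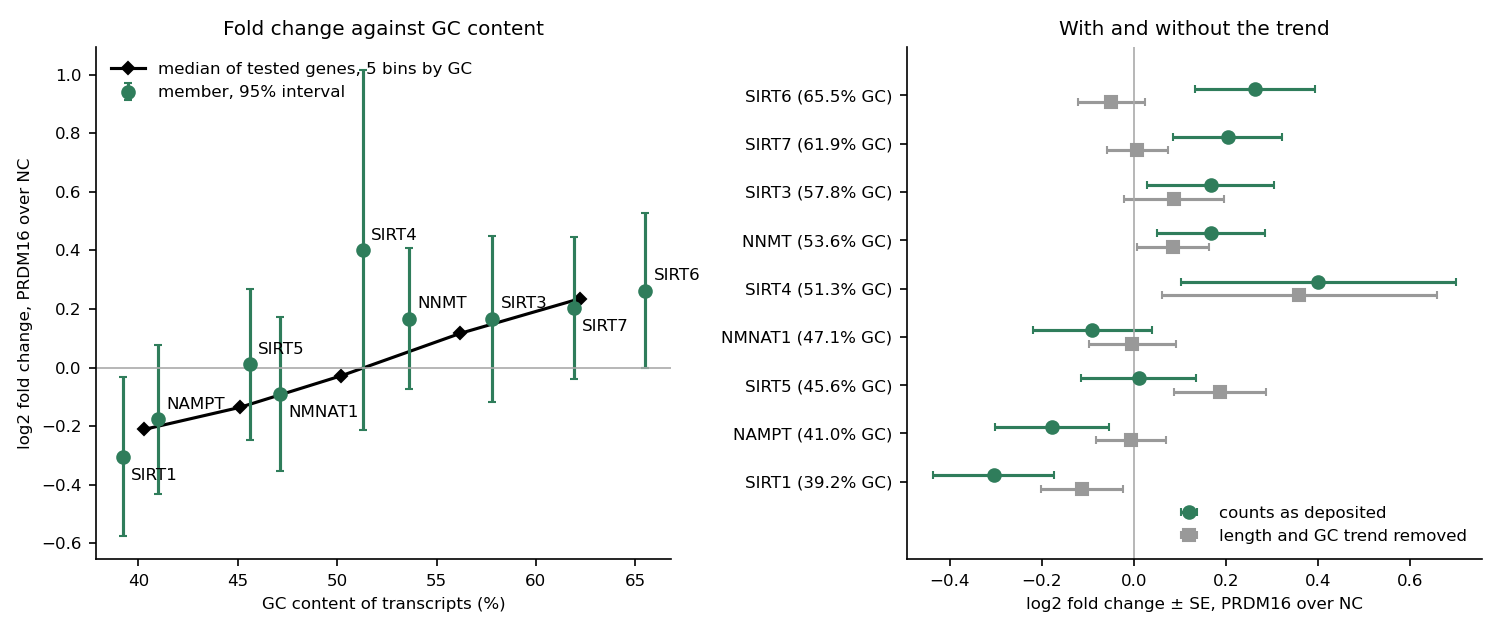
Left, log2 fold change of PRDM16 over NC with 95% intervals against the GC content of transcripts for 9 genes (SIRT2 left out for its wide interval), with the medians of all tested genes in 5 bins by GC content as black diamonds. Right, the same fold changes ± SE with the counts as deposited and with the length and GC trend removed: SIRT1 goes from -0.30 to -0.11 and SIRT6 from 0.26 to -0.05.

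No other gene of NAD+ synthesis passed either. Of 17 further genes of NAD synthesis and phosphorylation, 10 listings were tested, 6 higher and 4 lower with PRDM16, with 0 past the threshold in edgeR, DESeq2 or limma-voom. At an unadjusted p under 0.05 there was 1 of the 10, against 16.0% of all tested genes, and 46.9% of all tested genes were higher. Their median log2 fold change was 0.08, against -0.02 over all tested genes. That 1 was NAPRT, which starts NAD+ synthesis from nicotinic acid and is also listed at 2 places, with 60, 40 and 36 counts with NC and 53, 767 and 1072 with PRDM16. PRDM16 library 1, at 2.76 CPM, lay just above NC library 1 at 2.61, so the fold change of 3.31 ± 1.02 (SE, log2; edgeR adjusted p = 0.298) rested on PRDM16 libraries 2 and 3. The most abundant gene was QPRT, which joins the tryptophan route to NAD+, at 264 ± 28.1 CPM in the NC libraries and 297 ± 28.6 in the PRDM16 libraries (SD, n = 3). NADK2, the mitochondrial NAD kinase, was at 20.5 ± 3.24 and 17.2 ± 0.497 CPM, and NMRK1, the nicotinamide riboside kinase, at 12.5 ± 0.907 and 10.7 ± 0.853. IDO1, TDO2 and HAAO of the tryptophan route were too low to test. Of 7 genes of transport and handling of NAD+ and its precursors 6 were tested, 1 higher and 5 lower, with a median of -0.12, 0 past the threshold in any of the 3 tools and 0 at an unadjusted p under 0.05. NT5E, the surface enzyme that can take nicotinamide mononucleotide apart, led them at 311 ± 33.7 and 287 ± 21.0 CPM.

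Other consumers of NAD+ lay on both sides of 0. Of 18 tested listings of PARP family members and NAD glycohydrolases, 8 were higher and 10 lower (median -0.10), with 0 past the threshold in the 3 tools. An unadjusted p under 0.05 was found in 2 of the 18 (11.1%), against 16.0% of all tested genes. PARP10, a mono-ADP-ribosyltransferase with 65.8% GC, was at 336, 267 and 283 CPM with NC and 389, 348 and 344 with PRDM16, with no overlap between the groups (log2 fold change 0.29 ± 0.12, edgeR adjusted p = 0.298). In deposited TPM its groups overlapped. PARP14, of the same class with 42.4% GC, was at 390, 548 and 378 CPM with NC and 343, 296 and 393 with PRDM16 (-0.35 ± 0.15, edgeR adjusted p = 0.298). With 1 library left out the value of PARP14 lay between -0.46 and -0.15, the latter without NC library 2. With the length and GC trend removed PARP10 and PARP14 were at 0.03 and -0.12. CD38, the main NAD glycohydrolase of immune cells, was too low to test.

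The methyl donor that NNMT uses also serves other enzymes. Of 14 tested listings of that cycle, 6 were higher and 8 lower (median -0.07), with 0 past the threshold in edgeR or limma-voom, and 1 in DESeq2, which called 0.299% of all genes. At an unadjusted p under 0.05 in edgeR there were 3 of the 14 (21.4%), against 16.0% of all tested genes. Among the 3 was a listing of SHMT1 on a scaffold outside the chromosomes. It had 26, 16 and 10 counts with NC and 17, 34 and 58 with PRDM16, and its groups overlapped in CPM. GAMT, which methylates guanidinoacetate to creatine, was the 1 called by DESeq2 (adjusted p = 0.0315). It was at 147, 135 and 149 CPM with NC and 219, 204 and 174 with PRDM16, and the groups did not overlap. Its edgeR log2 fold change was 0.47 ± 0.12 (adjusted p = 0.160), and 0.23 with the length and GC trend removed. PEMT, which methylates phosphatidylethanolamine, was at 26.8 ± 1.45 and 34.2 ± 2.19 CPM (0.35 ± 0.12, edgeR adjusted p = 0.288), and 0.06 with the trend removed. SHMT2, the most abundant of the list by TPM, was at 443 ± 53.9 and 522 ± 73.5 CPM (0.24 ± 0.13, edgeR adjusted p = 0.333). With the trend removed it was at 0.07.

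Regulators and targets of sirtuins were tested in 18 genes, 12 higher and 6 lower (median 0.06), with 0 past the threshold in the 3 tools. An unadjusted p under 0.05 was found in 4 of the 18 (22.2%), against 16.0% of all tested genes, and 66.7% were higher, against 46.9%. HIC1, a repressor of SIRT1 transcription, was at 33.2, 26.2 and 30.3 CPM with NC and 43.9, 41.8 and 37.0 with PRDM16, all 3 above all NC libraries (log2 fold change 0.45 ± 0.13, edgeR adjusted p = 0.222). With the trend removed it was at 0.20 ± 0.09. RPS19BP1, a protein that binds and activates SIRT1, was at 54.7 ± 8.31 and 71.9 ± 11.1 CPM (0.39 ± 0.13, edgeR adjusted p = 0.287) and at 0.05 with the trend removed. FOXO3, a transcription factor deacetylated by SIRT1, was at 63.5 ± 8.09 and 52.9 ± 0.930 CPM (-0.27 ± 0.12, edgeR adjusted p = 0.301), and RELA, the NF-kappaB subunit, at 167 ± 21.3 and 200.2 ± 6.75 CPM (0.26 ± 0.12, edgeR adjusted p = 0.300). With the trend removed FOXO3 was at -0.12 and RELA at 0.04. With 1 library left out FOXO3 lay between -0.37 and -0.17, the latter without NC library 2. XRCC6, the most abundant of the list by TPM, was at 388 ± 43.1 and 396 ± 51.0 CPM (0.03 ± 0.13, edgeR adjusted p = 0.916).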

How the data were processed

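For each library the authors deposited 1 table with raw counts, TPM and FPKM per gene, per the file headers. As checked on the files, the deposited counts are whole, the deposited TPM sum to 1000000 per library, and the deposited FPKM follow from counts, listed length and total. Reads were placed on hg38, per the submitters' processing notes. No source used here names the aligner, the counter or the annotation release. The lines of 7 genes, broken in the files, were rejoined. Groups came from the titles.

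All genes with a minimum count of 10 and total of 15 (15381) were tested together with edgeR 4.0.16 (R 4.3.3), TMM factors and robust quasi-likelihood, without a replicate block. DESeq2 1.42.0 and limma 3.58.1 were alternatives. SEs came from the fold change and F statistic. GC content was the median over GENCODE transcripts by symbol, found for 90.3% of tested genes, and its trend, with length, was removed by splines (5 degrees of freedom each) as offsets. Only the edgeR test was tried on simulated counts, with the same dispersion for all genes and no GC trend. The other tools and the removal of the trend were not tried on them. Intervals and floors cover counting error or spread between libraries only, and reads copied by PCR are not independent molecules.

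The genes, the lists and the rule for naming genes (all 10, and up to 4 per list by smallest p plus the most abundant) were chosen with earlier results of these data known. Other named genes were chosen after their values were seen. Some marker genes are not reported here.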

Additional observations from a re-analysis of the deposited data

How the results depend on the processing

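Under 17 alternatives 0 of the 10 genes passed, with adjusted p of at least 0.0881. Over all genes, against 10 that passed, the number was 48 in DESeq2, 4 in limma-voom, 107 with no filter on low counts, 5 with a mean of at least 5 CPM, 5 with the length and GC trend removed and 4 with that and the replicate block. It was 18 with the listings of a symbol summed, between 7 and 173 with 1 library left out, and 627 without NC library 1 and PRDM16 library 3, a pair chosen after the counts of SIRT2 were seen; the cause of these differences was not tested.

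Of 169 values of single genes, 159 kept their direction and their side of the threshold. SIRT2 changed sign with 1 library left out (-0.93 to 0.94), with the replicate block (0.0022), in limma-voom (0.081) and without both high libraries (0.37). SIRT5 changed sign with upper-quartile factors (-0.0011) and with 1 library left out (-0.0098 to 0.051). SIRT6 changed sign with the length and GC trend removed (-0.049) and with that and the replicate block (-0.048).

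With the replicate number as a block 10 genes passed, 0 of them among the 10 described. Same-numbered libraries had correlations of deviations of 0.11, -0.11 and -0.17, and only the libraries numbered 1 correlated best with their own number, so no pairing was used. The sum of NAMPT with a processed pseudogene was not run, since no such listing was found among the genes analysed here. Depth limits SIRT4, at 15 to 45 counts, and SIRT2 at its place on the chromosome, at 1 or 2 counts.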

Other observations

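The zinc-dependent histone deacetylases, which also remove acetyl groups but use no NAD+, were all tested. Of 11 genes 7 were higher and 4 lower with PRDM16 (median log2 fold change 0.12, and 0.03 with the length and GC trend removed), with 0 past the threshold in edgeR, DESeq2 or limma-voom. At an unadjusted p under 0.05 in edgeR there was 1 of the 11 (9.09%), against 16.0% of all tested genes. The groups did not overlap in CPM in 6 of the 11, against 21.0% of all tested genes and 0 of the 10 sirtuin and NAD listings. This was the highest share of the lists. It was 2 of 10 for other NAD synthesis, 1 of 6 for transport and handling and 3 of 18 for other consumers. For the methyl donor cycle it was 3 of 14, and for regulators and targets 5 of 18. In deposited TPM 2 of the 10 sirtuin and NAD listings did not overlap, against 21.9% of all tested genes, and no such count was made for the 11 deacetylases. On that scale the groups overlapped for HDAC10 and did not for HDAC8. HDAC10, a polyamine deacetylase, was at 28.8, 23.5 and 26.3 CPM in the NC libraries and 32.6, 32.3 and 29.8 with PRDM16, and HDAC8 at 10.9, 11.1 and 10.9 CPM in the NC libraries and 8.80, 9.73 and 8.48 with PRDM16. HDAC8 went from a log2 fold change of -0.29 to -0.18 ± 0.10 (SE) when the trend was removed, and HDAC10 from 0.27 to -0.02. HDAC3, the most abundant of the 11, had 132 ± 13.1 CPM in the NC libraries and 154 ± 14.8 in the PRDM16 libraries (SD, n = 3).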
